A study of Mus musculus with 34 samples.

Results

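Mast cells keep a store of proteases in their granules, and 7 of the genes that encode them were followed here in visceral white fat of mice, in the cells that remain once adipocytes have floated off (the stromal vascular fraction, SVF). They were the tryptase genes Tpsb2 and Tpsab1, the chymase family genes Mcpt4, Cma1, Mcpt1 and Mcpt2, and the carboxypeptidase gene Cpa3, out of 32098 genes listed. The set was selected on measured values: in earlier results of these data, Tpsb2, Tpsab1 and Mcpt4 were among the genes that differed most over 8 and 20 weeks, and the rest of the family was added to them. All values at 8 and 20 weeks are therefore given for the members as a description with no test, and the members were tested at 34 weeks only, in libraries that did not choose them. RNA was sequenced from male C57BL/6J mice that had received, from 6 weeks of age, either a high fat diet (HFD) with 60% of kcal from fat or a control diet (CHOW). CHOW was of 2 formulations, and which of them a library had is not given in the labels. Diets lasted 8, 20 or 34 weeks, and these CHOW groups held 4, 5 and 7 libraries while each HFD group held 6. Mice were fasted before harvest, and the fat was digested with collagenase and red blood cells were lysed. The labels do not say that each library is 1 mouse, so the spread between libraries may be in part technical.

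Mast cells mature in tissues and carry granules in which positively charged proteases are packed onto serglycin, a proteoglycan with heparin chains. Tryptases cut after lysine and arginine, chymases after aromatic residues, and carboxypeptidase A trims residues from the end of a chain. Together they act on matrix proteins, cytokines, vasoactive peptides and venoms once the granules are released. In mice, connective tissue mast cells are known for Tpsb2, Mcpt4, Cma1 and Cpa3, and mucosal mast cells for Mcpt1 and Mcpt2. C57BL/6 mice are known to carry a splice defect in Tpsab1, whose part in the values below was not tested.

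Levels are in TPM, the share of each library that a gene's transcripts take up, corrected for their length and scaled to a sum of 1000000, which allows levels of genes to be compared within a library. TPM keeps no read depth, so the depth behind each value is unknown. In a mixed pellet, more cells of a type and more RNA per cell cannot be told apart. Some libraries stood apart: adipocyte genes summed to up to 71229.7 TPM in CHOW libraries of 34 weeks (7 libraries, median 8082) and to at most 5899 TPM in HFD libraries of that time, seminal vesicle genes reached 123060.2 TPM in HFD 8 week replicate 3, and germ cell genes 12144 TPM in HFD 20 week replicate 5. Without HFD 8 week replicate 3 the members' median log2 fold change at 8 weeks, described below, was -1.17, and without HFD 20 week replicate 5 that at 20 weeks was 1.7. Hemoglobin and other erythroid genes summed to between 7100 and 267887 TPM in single libraries.

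The chymase genes lie in a cluster on chromosome 14 and the tryptase genes are neighbours on chromosome 17. In the GRCm38 build, Cma1 spans 55941451 to 55944675 (minus strand), Mcpt1 56017971 to 56020384 (plus), Mcpt2 56042041 to 56044642 (plus) and Mcpt4 56059629 to 56062313 (minus) on chromosome 14. Tpsab1 spans 25343245 to 25345562 (minus) and Tpsb2 25366305 to 25369098 (plus) on chromosome 17, and Cpa3 spans 20215620 to 20242181 (minus) on chromosome 3. All 7 are protein coding genes. RefSeq promoter sequences were matched for 4 of the 7 members, and the stretch up to the start of the gene is shown for them because Mcpt4 and Mcpt1 have similar promoters and very different levels. The windows are chr14:56062314-56062560 (Mcpt4, minus strand), chr14:56017714-56017963 (Mcpt1, plus), chr14:55944676-55944925 (Cma1, minus) and chr3:20242182-20242431 (Cpa3, minus) in GRCm38.p6. Capitals mark the letters GATAA and TATAAA, read on both strands.
Mcpt4: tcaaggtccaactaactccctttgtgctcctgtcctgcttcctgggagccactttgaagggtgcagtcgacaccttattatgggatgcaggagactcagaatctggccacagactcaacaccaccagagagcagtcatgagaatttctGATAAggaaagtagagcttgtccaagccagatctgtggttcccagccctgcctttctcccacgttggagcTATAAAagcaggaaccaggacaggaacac
Mcpt1: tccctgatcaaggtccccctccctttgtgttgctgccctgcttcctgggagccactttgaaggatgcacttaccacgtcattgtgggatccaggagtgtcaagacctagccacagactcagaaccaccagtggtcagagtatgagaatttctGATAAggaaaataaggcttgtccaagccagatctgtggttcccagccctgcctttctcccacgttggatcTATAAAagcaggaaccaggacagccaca
Cma1: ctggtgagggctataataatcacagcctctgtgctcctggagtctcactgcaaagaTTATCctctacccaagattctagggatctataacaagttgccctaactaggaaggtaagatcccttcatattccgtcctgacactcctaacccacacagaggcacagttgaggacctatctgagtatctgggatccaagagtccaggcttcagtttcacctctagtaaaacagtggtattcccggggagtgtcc
Cpa3: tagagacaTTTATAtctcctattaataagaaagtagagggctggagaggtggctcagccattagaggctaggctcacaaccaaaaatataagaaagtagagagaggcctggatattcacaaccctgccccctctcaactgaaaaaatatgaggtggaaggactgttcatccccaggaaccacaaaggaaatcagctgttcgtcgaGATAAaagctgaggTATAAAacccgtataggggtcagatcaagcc

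GATAA is the core of the sites that GATA factors bind, and TATAAA is the TATA box. The Mcpt4 window held GATAA from -102 to -98 and TATAAA from -32 to -27, counted from the RefSeq start of the gene. The Mcpt1 window held GATAA from -98 to -94 and TATAAA from -28 to -23. Cpa3 held GATAA from -45 to -41 and TATAAA from -31 to -26, with a further TATAAA on the other strand from -242 to -237. Cma1 held GATAA on the other strand from -194 to -190 and no TATAAA. Of 32851 windows of 250 bases before a gene start, 22.6% held GATAA and 12.4% held TATAAA on either strand. The Mcpt4 and Mcpt1 windows were identical at 209 of 242 aligned bases (86.4%). Over the coding sequence, Mcpt4 shared 87.0% of aligned bases with Mcpt1, 80.4% with Mcpt2 and 71.1% with Cma1.

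Near copies can exchange reads when transcripts are quantified, so the transcripts were compared with each other. Tpsb2 and Tpsab1 were identical at 76.9% of 815 aligned coding bases. Only 9 stretches of 31 bases occurred in transcripts of both, and 99.4% of those of Tpsb2 and 99.6% of those of Tpsab1 were found in no other member. The longest coding run that both tryptases share has 39 bases and spans the junction of exons 2 and 3 in each gene (chr17:25366888-25367046 in Tpsb2 and chr17:25344916-25345087 in Tpsab1, GRCm38).
Tpsb2 and Tpsab1: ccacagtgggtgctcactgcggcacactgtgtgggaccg
For Mcpt4 this share of 31-base stretches was 98.0%, for Mcpt1 94.6%, for Mcpt2 96.7%, and for Cma1 and Cpa3 100%.

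Within the chymase cluster, 2 genes were abundant and their neighbours were near 0. Cma1 ranged from 24 to 749 TPM and Mcpt4 from 28.5 to 769.6 TPM over the 34 libraries. Mcpt1, whose promoter resembles that of Mcpt4, was listed at 0 in 31 of 34 libraries. Its other values were 0.948 and 0.653 TPM in HFD 20 week replicates 2 and 6 and 0.227 TPM in HFD 34 week replicate 4. Mcpt2 was listed at 0 in 27 of 34 libraries. It reached 0.969 and 0.338 TPM in HFD 20 week replicates 1 and 2, 0.312 and 0.577 TPM in replicates 2 and 4 of CHOW at 34 weeks, and 0.243, 0.247 and 0.495 TPM in replicates 4, 5 and 6 of HFD at that time. Thus both genes typical of mucosal mast cells stayed under 1 TPM in every library, and neither passed the filter on low values. Cma2, Mcpt9 and Mcpt8, which lie between or beside them, reached 2.54, 0.3 and 1.89 TPM at most. Ctsg, the gene of cathepsin G, reached 10.2 TPM and Gzmb, the gene of granzyme B, 32.4 TPM. In the tryptase cluster, the highest values were 864 TPM for Tpsb2, 154 TPM for Tpsab1 and 15.8 TPM for the membrane-anchored tryptase gene Tpsg1.

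**Figure D1:**
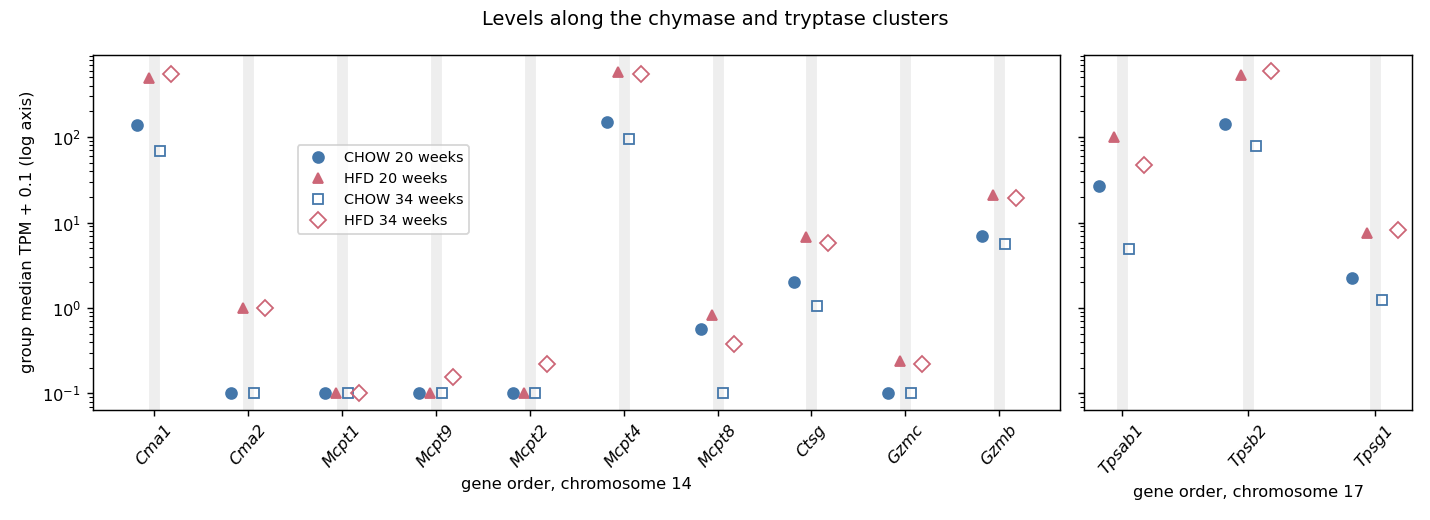
Group median TPM plus 0.1 (log axis) of the genes in the chymase cluster on chromosome 14 and the tryptase cluster on chromosome 17, in gene order and not to distance, for 20 weeks (filled) and 34 weeks (open) on CHOW (blue) and HFD (red). Cma1, Mcpt4 and Tpsb2 stand far above their neighbours, and Mcpt1 lies at the floor in all 4 groups.

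At 8 weeks the proteases were lower on HFD than on CHOW. Tpsb2 was at 74.1, 86.1, 81.2 and 129 TPM in the CHOW libraries, and at 32.5, 48 and 65.2 TPM (lowest, median, highest) in the 6 HFD libraries. Mcpt4 was at 92.0, 102, 91.2 and 179.8 TPM on CHOW and at 28.8, 48.1 and 73.6 TPM on HFD. Tpsab1 was at 14.7, 19, 27.4 and 49.9 TPM on CHOW and at 4.3, 7.08 and 13.8 TPM on HFD. For these 3 genes every HFD library lay below every CHOW library. The share of all genes tested that lay apart in this way was not computed, here or for the comparisons below. Cma1 was at 59.2, 67.0, 81.0 and 131 TPM on CHOW and at 24, 37.7 and 64.7 TPM on HFD. Cpa3 was at 40.8, 49.2, 35.0 and 58.2 TPM on CHOW and at 11.9, 24.6 and 39.6 TPM on HFD. For Cma1 and Cpa3, 5 of 6 HFD libraries lay below all CHOW libraries, and replicate 4 was the highest CHOW library for all 5 genes.

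The fitted HFD minus CHOW differences at 8 weeks, as log2 fold changes of TPM + 1, were -0.96 (SE 0.31) for Tpsb2, -1.62 (SE 0.40) for Tpsab1, -1.25 (SE 0.36) for Mcpt4, -1.11 (SE 0.38) for Cma1 and -1.0 (SE 0.38) for Cpa3. Their median was -1.11, against -0.08 for all genes tested. Of the 16808 genes tested, 0.0238% passed an adjusted p of 0.05 (limma with Benjamini-Hochberg adjustment) as lower and 0% as higher (351 genes at an unadjusted p under 0.05). The sum of neutrophil genes was also lower, with a median of 136 TPM on HFD against 784 TPM on CHOW, and their part in the difference was not tested.

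At 20 weeks the order of the diets was the opposite. Tpsb2 was at 145, 185, 141, 141 and 129.8 TPM on CHOW and at 191, 539 and 864 TPM on HFD, with every HFD library above every CHOW library. Mcpt4 was at 129, 209, 149, 155 and 149 TPM on CHOW and at 164, 574 and 748 TPM on HFD. Tpsab1 was at 26.4, 38.0, 22.3, 24.1 and 31 TPM on CHOW and at 31.9, 99.8 and 154 TPM on HFD. The lowest HFD value of each gene was that of replicate 4, with replicate 5 the next. Cma1 was at 144, 171, 122, 132 and 139 TPM on CHOW and at 115, 499 and 668 TPM on HFD. Cpa3 was at 61.9, 86.8, 48.9, 59.5 and 63.6 TPM on CHOW and at 75.1, 270.3 and 359 TPM on HFD. For Tpsab1, Mcpt4, Cma1 and Cpa3, 5 of 6 HFD libraries lay above all CHOW libraries, and replicate 4 lay below all of them for Cma1.

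The log2 fold changes at 20 weeks were 1.66 (SE 0.29) for Tpsb2, 1.58 (SE 0.38) for Tpsab1, 1.5 (SE 0.33) for Mcpt4, 1.36 (SE 0.36) for Cma1 and 1.71 (SE 0.35) for Cpa3, which is 2.56 to 3.26-fold on the scale of TPM + 1. Their median was 1.58, against 0.08 for all genes tested. Of all genes tested, 9.32% passed the threshold as higher on HFD and 4.99% as lower, so HFD differences were widespread at this time. Among markers of other cells, all 5 erythroid genes, 8 of 8 mesothelial genes and 4 of 7 eosinophil genes passed as lower on HFD. Of 10 adipocyte genes 6 passed as lower and 1 as higher, and of 12 macrophage genes 6 passed as higher and 1 as lower. None of 8 germ cell genes passed by limma, but 5 had an unadjusted p under 0.05 and their median log2 fold change was 3.27. With the erythroid, adipocyte, germ cell and seminal vesicle genes removed and TPM rescaled, the members' median was 1.51. The part of the other cell types in the TPM of the proteases was not tested.

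**Figure D2:**
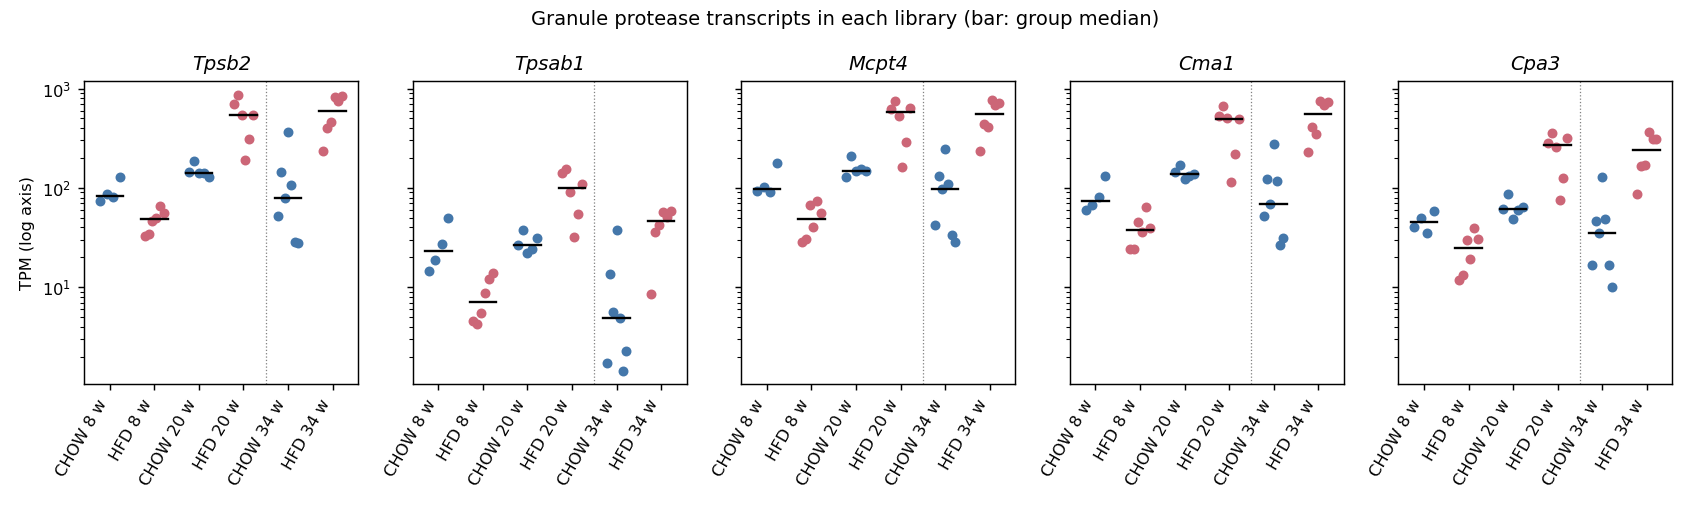
TPM (log axis) of the 5 detected proteases in each library, with CHOW in blue, HFD in red and a bar at the group median; the dotted line parts the 8 and 20 week table from the 34 week table. All 5 lie lowest on HFD at 8 weeks within the first table and are high on HFD at 20 and 34 weeks, with CHOW 34 week replicate 4 near the HFD range.

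On HFD the 5 proteases were higher at 20 than at 8 weeks, with no overlap between the libraries of the 2 times for any of them. The log2 fold changes were 3.32 (SE 0.28) for Tpsb2, 3.35 (SE 0.36) for Tpsab1, 3.23 (SE 0.32) for Mcpt4, 3.26 (SE 0.34) for Cma1 and 3.18 (SE 0.34) for Cpa3. The differences thus lay between 9.08 and 10.2-fold for tryptases, chymases and carboxypeptidase alike. These values helped to choose the set and nothing is read from them beside the background, in which 6.12% of genes passed as higher and 2.65% as lower. On CHOW the same interval gave 0.70 (SE 0.32) for Tpsb2, 0.15 (SE 0.42) for Tpsab1, 0.48 (SE 0.37) for Mcpt4, 0.79 (SE 0.40) for Cma1 and 0.48 (SE 0.39) for Cpa3. Only for Tpsb2 did all CHOW libraries of 20 weeks lie above all of 8 weeks, and barely so. Its lowest value at 20 weeks was 129.8 TPM and its highest at 8 weeks 129 TPM. Of all genes, 0.458% passed as higher and 0.155% as lower. The direction of Tpsab1 on CHOW turned to -0.15 with a covariate for adipocyte genes and to -0.09 without CHOW 8 week replicate 1.

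The difference between the HFD effects at 20 and 8 weeks (the diet by time interaction) was 2.62 (SE 0.42) for Tpsb2, 3.20 (SE 0.55) for Tpsab1, 2.75 (SE 0.49) for Mcpt4, 2.47 (SE 0.52) for Cma1 and 2.70 (SE 0.52) for Cpa3 on the log2 scale. Part of each value comes from the low HFD levels at 8 weeks. Over all genes 0.161% passed with a more positive HFD effect at 20 weeks and 0.137% with a more negative one.

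**Figure D3:**
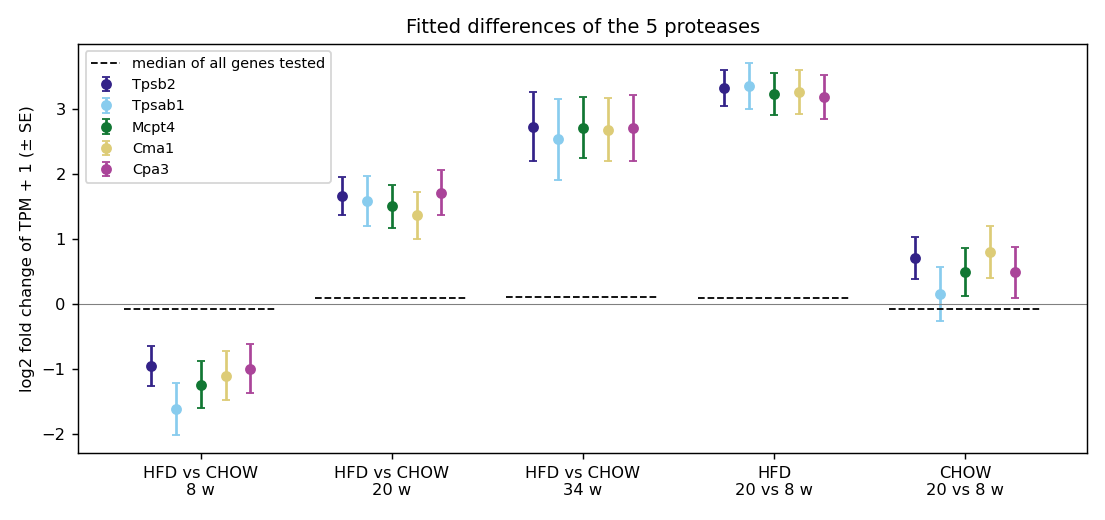
Fitted log2 fold changes of TPM + 1 (± SE) of the 5 detected proteases in 5 comparisons, with the median of all genes tested as a dashed line. The 5 genes lie together in each comparison, below 0 for HFD against CHOW at 8 weeks and above 1 at 20 and 34 weeks.

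At 34 weeks, in libraries that had no part in the choice, the proteases were higher on HFD than on CHOW by 5.79 to 6.61-fold on the scale of TPM + 1. Mcpt4, the main chymase of connective tissue mast cells, was at 28.5, 96.4 and 246 TPM in the 7 CHOW libraries (lowest, median, highest) and at 235, 556 and 769.6 TPM in the 6 HFD libraries. Cma1 was at 26.8, 69.1 and 279 TPM on CHOW and at 231, 548 and 749 TPM on HFD. Cpa3, the carboxypeptidase, was at 10.0, 35.2 and 128 TPM on CHOW and at 87.0, 239 and 362 TPM on HFD. For these 3 genes, 5 of 6 HFD libraries lay above all CHOW libraries. The exceptions were HFD replicate 1, the lowest of its group, and CHOW replicate 4, the highest of its group, for every detected protease.

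Mcpt4 rose with a log2 fold change of 2.71 (SE 0.47) and an adjusted p of 0.0395, Cma1 with 2.68 (SE 0.49) and 0.046, and Cpa3 with 2.70 (SE 0.51) and 0.0481, by limma with adjustment over 13982 genes. Tpsb2, the tryptase that makes up most of the tryptase RNA here, was at 28.0, 79.5 and 365 TPM on CHOW and at 234, 599.9 and 834 TPM on HFD. It had a log2 fold change of 2.72 (SE 0.53, 95% interval 1.58 to 3.87) and did not pass, with an adjusted p of 0.058 by limma. Tpsab1 was at 1.45, 4.85 and 37.5 TPM on CHOW and at 8.56, 46.6 and 58.0 TPM on HFD. Its log2 fold change was 2.53 (SE 0.62, 95% interval 1.20 to 3.87) with an adjusted p of 0.134 by limma, and 4 of 6 HFD libraries lay above all CHOW libraries. In all, 3 of the 7 members passed, 2 did not and 2 were under the filter. Of all genes tested 0.243% passed as higher and 0% as lower (493 genes at an unadjusted p under 0.05). The members' median was 2.70 and that of all genes tested 0.10.

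Markers of other cells differed at 34 weeks too. None of 7 germ cell genes passed by limma, but all 7 had an unadjusted p under 0.05, with a median of 3.31, and of 10 adipocyte genes none passed and 8 had an unadjusted p under 0.05, with a median of -2.11. With the genes of both lists and the erythroid and seminal vesicle genes removed and TPM rescaled, the members' median was 2.68, and 3 members passed.

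The calls at 34 weeks lay close to the threshold. None of the 5 passed when any 1 of 10 libraries was left out (CHOW replicates 1, 3, 5, 6 and 7 and HFD replicates 2, 3, 4, 5 and 6), while all 5 passed without CHOW replicate 4 (Tpsb2 with 3.09 and an adjusted p of 0.00477 by limma, Tpsab1 with 2.96 and 0.0149). With the adipocyte gene score as a covariate, Mcpt4 was at 1.94, Cma1 at 1.83, Cpa3 at 1.98, Tpsb2 at 1.77 and Tpsab1 at 1.54, and none passed. Under each alternative tried the difference of all 5 stayed above 0.

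The make-up of the protease signal varied less than its level. The 5 detected genes summed to 367 ± 122 TPM (SD, n = 4) on CHOW and 168 ± 58.9 TPM (n = 6) on HFD at 8 weeks, 541 ± 84.0 TPM (n = 5) and 1781 ± 832 TPM (n = 6) at 20 weeks, and 365 ± 334 TPM (n = 7) and 1925 ± 811 TPM (n = 6) at 34 weeks. This is a mean of 0.0168% of the library on HFD at 8 weeks and of 0.193% on HFD at 34 weeks. Over the 6 groups, Tpsb2 made up a mean of 25.6 to 30.1% of the sum, Mcpt4 28.2 to 31.5%, Cma1 22.9 to 27.9% and Cpa3 11.8 to 13.9%. By abundance, Tpsb2 was the 195th most abundant gene in HFD 20 week replicate 2 and the 4587th in HFD 8 week replicate 1.

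The order of the levels was partly fixed. Cma1 lay above Cpa3 and Cpa3 above Tpsab1 in 34 of 34 libraries. Mcpt4 lay above Cma1 in 27 of 34 and Tpsb2 above Cma1 in 29 of 34, whereas Tpsb2 lay above Mcpt4 in 16 of 34. On CHOW, Tpsb2 lay above Mcpt4 in 0, 1 and 3 libraries at 8, 20 and 34 weeks (n = 4, 5 and 7). On HFD it did so in 3, 5 and 4 libraries (n = 6 each). Whether the order of these 2 genes depends on diet at 8 and 20 weeks was not tested. At 34 weeks the ratio of each other protease to Mcpt4 was compared between diets with an exact two-sided permutation test over 1716 regroupings. The log2 ratio of Tpsb2 to Mcpt4 was 0.08 ± 0.13 (SD, n = 6) on HFD and 0.06 ± 0.30 (n = 7) on CHOW. That of Cma1 was -0.05 ± 0.10 and -0.03 ± 0.28, that of Cpa3 -1.25 ± 0.14 and -1.27 ± 0.23, and that of Tpsab1 -3.79 ± 0.52 and -3.92 ± 0.73. None of the 4 ratios passed, each with an adjusted p of 0.888 in the exact permutation test, and the differences lay between -0.02 and 0.13. The spread of each ratio was wider on CHOW.

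Tpsab1 was the exception to the steady shares. Its mean share of the sum was 7.23% on CHOW and 4.80% on HFD at 8 weeks, 5.22% and 5.43% at 20 weeks, and 2.06% and 2.15% at 34 weeks. The ratio of Tpsb2 to Tpsab1 within a library lay between 2.58 and 8.58 in the 21 libraries of 8 and 20 weeks and between 9.74 and 30.5 in the 13 libraries of 34 weeks, without overlap. The 34 week libraries are in a table of their own, so time on the diet and the making of the table cannot be told apart, and no test was run across tables. At 8 weeks the ratio was 3.77 ± 1.19 (SD, n = 4) on CHOW and 6.47 ± 1.74 (n = 6) on HFD. When the 2 tryptases were summed to 1 feature, its log2 fold change at 34 weeks was 2.73 (SE 0.54) with an adjusted p of 0.0639 by limma.

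**Figure D4:**
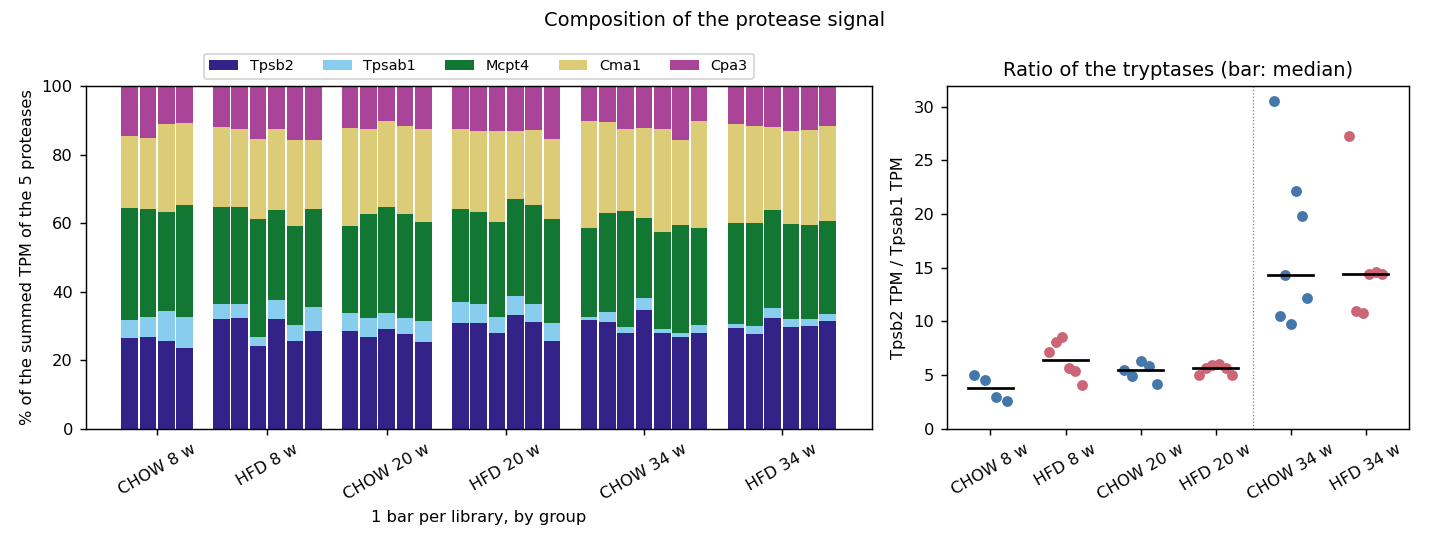
Left, the share (%) of each of the 5 detected proteases in their summed TPM, 1 bar per library; right, the ratio of Tpsb2 to Tpsab1 TPM in each library, with CHOW in blue, HFD in red and a bar at the group median. The shares of Tpsb2, Mcpt4, Cma1 and Cpa3 are much alike in all groups, whereas the tryptase ratio lies at or under 8.58 at 8 and 20 weeks and at or above 9.74 at 34 weeks.

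The proteases were set beside 10 other genes that mark mast cells, a list chosen with earlier results of these data known. It is thus no independent check of the label of the set. Each of the 10 genes reached 1 TPM in at least 1 HFD library at 20 and at 34 weeks. They included the stem cell factor receptor Kit, the IgE receptor chains Fcer1a and Ms4a2, the histamine-forming enzyme Hdc and the receptor Mrgprb2. Their sum ranged from 117 to 209 TPM on CHOW and 78.4 to 110.3 TPM on HFD at 8 weeks, from 110 to 189.6 and 161 to 392 TPM at 20 weeks, and from 29.9 to 179 and 136 to 365 TPM at 34 weeks. At 20 weeks 7 of the 10 passed as higher on HFD, among them Kit, at 20.3 ± 6.64 TPM (SD, n = 6) against 8.00 ± 1.44 TPM (n = 5) on CHOW, with a log2 fold change of 1.20 (SE 0.23) and an adjusted p of 0.00201 by limma. Hdc with 0.84 (SE 0.36), Rgs13 with 0.51 (SE 0.24) and Gata2 with 0.17 (SE 0.26) did not pass at 20 weeks. At 34 weeks 1 of 9 tested passed. It was Ms4a2, at 7.49 ± 2.88 TPM (n = 6) against 1.33 ± 1.35 TPM (n = 7), with 1.93 (SE 0.33) and an adjusted p of 0.0358 by limma. The median over the list was 1.16 at 20 and 1.76 at 34 weeks.

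At 8 weeks none of these 10 genes passed by limma (2 had an unadjusted p under 0.05), with a list median of -0.38, and 9 of the 10 had a log2 fold change below 0. Hdc was at 25.4 ± 9.49 TPM (n = 6) on HFD against 73.6 ± 55.7 TPM (n = 4) on CHOW, a log2 fold change of -1.33 (SE 0.39) with an adjusted p of 0.222 by limma. Fcer1a was at 2.96 ± 1.68 TPM on HFD against 7.02 ± 2.77 TPM on CHOW, with -1.07 (SE 0.41) and an adjusted p of 0.386 by limma. Mrgprb1 had -0.60 (SE 0.41), Slc18a2 -0.54 (SE 0.28), Mrgprb2 -0.41 (SE 0.34) and Rgs13 -0.35 (SE 0.26), while Hpgds at -0.12 (SE 0.25) and Ms4a2 at -0.09 (SE 0.34) lay nearer to 0. Kit, the gene above 0, was at 11.6 ± 4.16 TPM on HFD against 8.85 ± 1.19 TPM on CHOW, with 0.28 (SE 0.25), and Gata2, a transcription factor of the mast cell lineage, at 26.5 ± 11.4 and 25.9 ± 7.11 TPM, with -0.03 (SE 0.27). Kit and Gata2 are also expressed by other cells of the SVF, which holds for their values at 20 and 34 weeks too. For the other genes of the list, among them Hpgds, which cells their RNA came from was not tested. Basophils share several of these genes. Of the genes that define basophils, Mcpt8 did not exceed 1.89 TPM in any library, and Prss34 was at 14 ± 6.90 TPM on HFD (n = 6) against 3.39 ± 2.91 TPM on CHOW (n = 7) at 34 weeks, with an adjusted p of 0.0915 by limma. Of the 5 basophil genes tested, 1 passed as higher on HFD at 20 and at 34 weeks, namely Cd200r3, whose values are given with the receptors below. Il4, another gene of that list, had 1.63 (SE 0.39) at 34 weeks with an adjusted p of 0.126 by limma. At 20 weeks Il4 had -1.21 (SE 0.46) and Ccl3, also of that list, -0.87 (SE 0.30), and neither passed. The median of the basophil list was -0.30 at 20 weeks, with 3 of 5 genes below 0, and 1.63 at 34 weeks, with 1 below 0. Those below 0 at 20 weeks were Il4, Ccl3 and Il6, while Prss34 had 0.65 (SE 0.34) and did not pass. Il6 and Ccl3 were at 952 and 618 TPM on HFD at that time, far above Prss34 at 9.5 TPM. Which cells the RNA of Il6 and Ccl3 came from was not tested. The part of basophils in the protease levels was not tested.

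**Figure D5:**
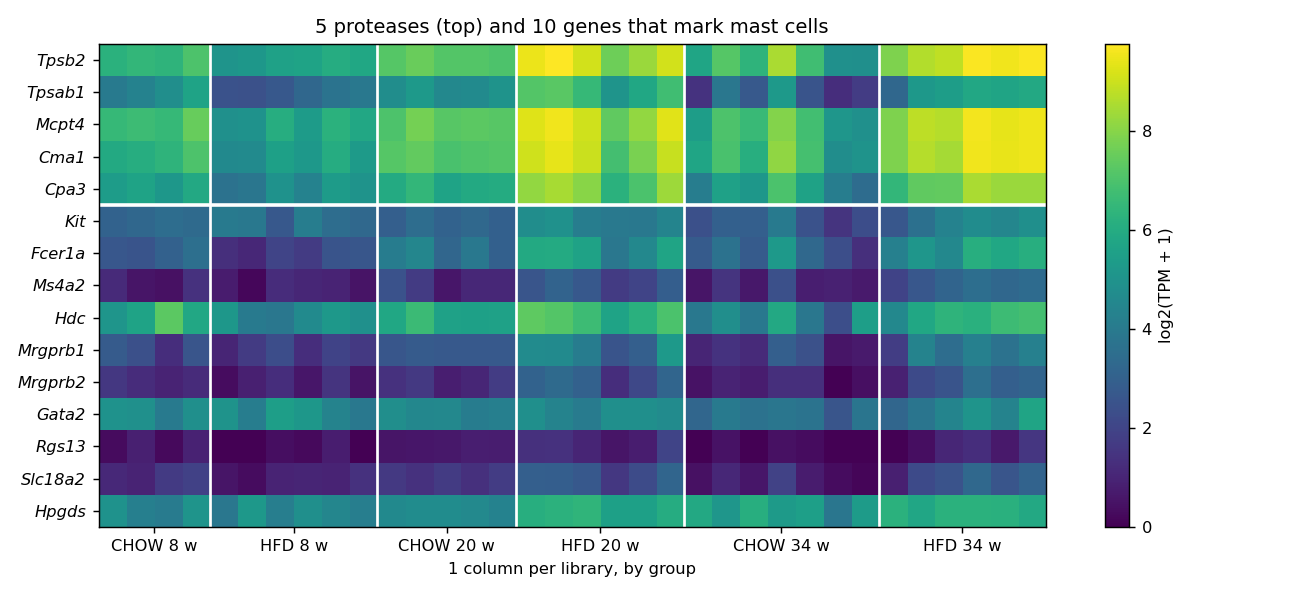
log2(TPM + 1) of the 5 detected proteases (top rows) and of 10 other genes that mark mast cells (lower rows), 1 column per library by group. Most protease cells are brighter on HFD than on CHOW at 20 and 34 weeks, replicate 4 is the brightest CHOW column for the proteases at 34 weeks, and at 8 weeks the proteases are darker on HFD, as are Hdc and Fcer1a, while Kit and Gata2 differ little.

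Among other proteases of the same families, 8 of 23 listed genes were tested. At 34 weeks 1 passed as higher and 0 as lower: Ctsg, which shares the chromosome 14 cluster, at 5.39 ± 3.02 TPM on HFD (n = 6) against 0.704 ± 0.621 TPM on CHOW (n = 7), with a log2 fold change of 1.85 (SE 0.34) and an adjusted p of 0.046 by limma. At 20 weeks 3 passed, all higher: Gzmb with 1.33 (SE 0.21), Tpsg1 with 1.28 (SE 0.33) and Ctsg with 1.19 (SE 0.34). From 8 to 20 weeks of HFD 5 passed as higher and 1 as lower. Tpsg1 rose by 2.30 (SE 0.31), Ctsg by 2.18 (SE 0.32), and Prss34, a tryptase of basophils and mast cells, by 2.00 (SE 0.33). Gzma, the granzyme A gene of T and NK cells, was the lower one with -1.89 (SE 0.23). The interaction passed for Tpsg1 at 2.35 (SE 0.48) and Gzmb at 1.52 (SE 0.30).

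Of 22 genes for the storage and processing of the proteases, 10 passed as higher on HFD at 20 weeks and 0 as lower, and 0 of 21 passed by limma at 34 weeks (5 had an unadjusted p under 0.05). Those at 20 weeks with the largest differences were the cathepsin gene Ctss with 1.71 (SE 0.37) and the serotonin-forming enzyme Tph1 with 1.47 (SE 0.33). From 8 to 20 weeks of HFD, 9 passed as higher and 1 as lower, led by Tph1 at 2.62 (SE 0.31) and Hdc at 2.04 (SE 0.35). The interaction passed for Tph1 at 2.44 (SE 0.48). Srgn, the gene of the serglycin core that binds the proteases, was at 493 ± 92.7 TPM on HFD (n = 6) against 499 ± 211 TPM on CHOW (n = 7) at 34 weeks, with 0.09 (SE 0.28). Ctsc, whose product activates chymases, was at 235 ± 76.7 and 247 ± 55.1 TPM, with -0.10 (SE 0.21). Neither passed, and many cell types of the SVF express both.

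Of 25 receptor and signalling genes, 11 of 24 tested passed as higher and 4 as lower on HFD at 20 weeks, and 2 of 22 as higher at 34 weeks. The latter were Ms4a2 and Cd200r3, an activating receptor of mast cells and basophils, at 5.67 ± 2.42 TPM on HFD (n = 6) against 0.827 ± 0.922 TPM on CHOW (n = 7), with 1.92 (SE 0.32) and an adjusted p of 0.0358 by limma. At 20 weeks the largest differences were those of the eosinophil lectin Siglecf with -2.23 (SE 0.36), the adaptor Lat2 with 1.75 (SE 0.36) and Cd200r3 with 1.58 (SE 0.31). Lineage transcription factors gave 2 higher and 1 lower of 15 at 20 weeks. Gata1 passed as lower, from 3.44 ± 2.25 TPM on CHOW (n = 5) to 0.427 ± 0.401 TPM on HFD (n = 6), with -1.56 (SE 0.34), while erythroid genes were also lower. Mitf, a regulator of mast cell granule genes, passed as higher with 1.11 (SE 0.19), and Lmo2 with 0.88 (SE 0.17). None of 13 passed by limma at 34 weeks, where 5 had an unadjusted p under 0.05.

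Of 9 enzymes of lipid mediators, 6 passed as lower and 1 as higher on HFD at 20 weeks. The higher one was Hpgds, the hematopoietic prostaglandin D synthase, at 63.9 ± 15.5 TPM on HFD (n = 6) against 23.5 ± 2.72 TPM on CHOW (n = 5), with 1.38 (SE 0.23). Alox15, a lipoxygenase that eosinophils and resident macrophages express, had -2.24 (SE 0.37) and Ptgs1 -1.48 (SE 0.23). Of the growth and recruiting factors, none of 12 passed by limma at 20 weeks (2 had an unadjusted p under 0.05) and 1 of 11 at 34 weeks. It was the type 2 cytokine gene Il13, at 9.51 ± 4.77 TPM on HFD (n = 6) against 1.06 ± 0.894 TPM on CHOW (n = 7), with 2.29 (SE 0.38) and an adjusted p of 0.0358 by limma. Kitl, the ligand of Kit, was at 29.5 ± 4.44 and 21.9 ± 4.91 TPM at 34 weeks, with 0.43 (SE 0.15) and an adjusted p of 0.27 by limma.

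Genes of known substrates and targets gave 2 higher and 2 lower of 13 at 20 weeks and none by limma at 34 weeks (4 had an unadjusted p under 0.05). The higher ones were the metalloproteinase genes Mmp3 with 2.55 (SE 0.47) and Mmp2 with 0.97 (SE 0.20). The lower ones were Mmp9 with -3.14 (SE 0.36), and Edn1, the gene of the vasoactive peptide endothelin, with -1.24 (SE 0.33). Of 12 protease inhibitors tested, 1 passed as higher and 1 as lower at 20 weeks, and none of 11 by limma at 34 weeks (1 had an unadjusted p under 0.05). They were Serpinb6a, a serpin of the cytosol, with 0.68 (SE 0.15), and the secreted inhibitor Slpi with -2.08 (SE 0.51). At 8 weeks no gene of these 8 lists passed by limma, with 1 to 3 genes of each at an unadjusted p under 0.05. On CHOW from 8 to 20 weeks the lists gave 6 genes in all, namely Stat5a, Ptges, Ccl5, Ccl2 and Serpina3g as higher and Lyl1 as lower.

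The genes whose levels followed the proteases most closely were ranked by Pearson r, with the mean log2(TPM + 1) of the 5 detected members, after the mean of each group was taken off both. This is a description over libraries that share their group's scaling. Among the members themselves the 10 pairs had r between 0.832 and 0.964 over the 21 libraries of 8 and 20 weeks, and between 0.91 and 0.99 over the 13 libraries of 34 weeks. At 8 and 20 weeks the highest were Mrgprx2 (0.924), Fcer1a (0.909), the side chain cleavage enzyme Cyp11a1 (0.840), the vesicular monoamine transporter Slc18a2 (0.832) and Tiam2 (0.814). At 34 weeks they were Socs3 (0.972), Foxc1 (0.962), Serping1 (0.961), Creb3l2 (0.960) and Slc45a3 (0.959). Only 4 genes were among the highest 50 in both tables: Fcer1a, Cyp11a1, Tph1 and Prss34. Cyp11a1 was at 1.71 ± 0.474 TPM (n = 6) after 8 weeks and 15.5 ± 7.28 TPM (n = 6) after 20 weeks of HFD. After 34 weeks its level was 14.9 ± 6.20 TPM on HFD (n = 6) against 1.96 ± 1.46 TPM on CHOW (n = 7).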

How the data were processed

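RNA-seq of the SVF used stranded poly(A) libraries on a NextSeq. Per the labels and methods, the authors used FastQC, MultiQC and Trimmomatic on the reads, Salmon with gencode M10 transcripts, and sums per gene. The sources used here give no versions for these tools. The deposited TPM values form 2 tables of 32098 genes, for the earlier times (21 libraries) and for 34 weeks (13 libraries). TPM is relative to a library's total and keeps no depth. Symbols came from gencode M21 for 31791 IDs (GRCm38), promoters from RefSeq (GRCm38.p6).

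TPM was analysed as log2(TPM + 1) with limma 3.58.1 in R 4.3.3 (group means, eBayes with a trend, two-sided, Benjamini-Hochberg over all genes tested, threshold 0.05). Genes needed 1 TPM in at least 4 libraries (8 and 20 weeks) or 6 (34 weeks). The tables were fitted apart. Errors are SDs between libraries or SEs of the fit. The members, lists and tests were chosen with earlier results of these data known. Named genes were the 7 members, list genes that passed at 34 weeks, up to 3 passing genes per list with the largest differences elsewhere, the genes most like the members, and genes named for their role whose values had been seen; 1 gene that the rule names is not reported here. The code was tested on simulated data, and sequences were compared with Biopython 1.88. The authors' own count-based tests were not used.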

Additional observations from a re-analysis of the deposited data

Results flagged for a closer look

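Each of the 5 detected proteases was tested in each of the 6 groups for a value far from the others, and 2 of these 30 cases had one. Chance alone gives one in about 1 of 20 cases, so 2 is close to what chance gives. The 5 genes also vary together, so the cases are not independent. Tpsab1 was at 8.56 TPM in HFD 34 week replicate 1, against 36.3 TPM or more in the other HFD libraries of that time. Mcpt4 was at 179.8 TPM in CHOW 8 week replicate 4, against 102 TPM or less in the other CHOW libraries of that time.

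The HFD effect on Tpsb2 had opposite signs at 8 and 20 weeks. Every HFD library lay below every CHOW library at 8 weeks and above every CHOW library at 20 weeks. How many of all genes tested lay apart in this way was not computed. The effect at 20 weeks minus that at 8 weeks was 2.62 on the log2 scale. This difference was not tested, because the values had helped to choose the gene.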

How the results depend on the processing

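The median log2 fold change of the members kept its sign in each of the 6 comparisons under every alternative, and moved by less than 1 SD between libraries. At 34 weeks it ranged from 1.83 (covariate for adipocyte genes) to 2.74, and from 2.48 to 3.00 with 1 library left out. The count of members called at 34 weeks, 3 of 7, did depend on the processing. It was 0 with a pseudocount of 0.1 TPM, with no filter, with a filter at 5 TPM, with a covariate for adipocyte genes, without CHOW replicates 5 to 7 and with the replicate block, and 5 with sample quality weights. With 1 library left out it ranged from 0 (each of CHOW replicates 1, 3, 5, 6 and 7 and HFD replicates 2 to 6) to 5 (CHOW replicate 4). The cause was not tested, save that filters change how many genes are tested and a left-out library leaves fewer. It moved little with median-ratio scaling, quantile normalization, removal of other-tissue genes and summed tryptases.

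Replicate numbers in the labels were not treated as pairs in the main fit. Of 34 same-numbered pairs, 16 had an r over 0.1 (range -0.105 to 0.404). Libraries with different numbers were not compared, so these values cannot show whether same-numbered libraries belong together. With the replicate block 0 members passed at 34 weeks. Unknown depth and 6 or 7 libraries a group limit what can be called there.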
